A study of Mus musculus with 30 samples.

Results

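The genes described here are the hormone and receptor genes of the anterior pituitary: Prl (prolactin), Gh (growth hormone), Tshb, Lhb and Fshb (the beta subunits of thyrotropin, luteinizing hormone and follicle-stimulating hormone), Cga (the alpha subunit that those 3 hormones share), Ghrhr and Gnrhr (the receptors for growth hormone releasing hormone and for gonadotropin releasing hormone) and Pou1f1 (a transcription factor of the hormone-producing cells). They were chosen by name, with their signal in 1 hypothalamic block already known, so the values in that block describe the choice and are not a test of it. Of the 9 genes named, 8 had a probe under that name, with 9 probes in all (Tshb has 2), out of 41174 probes and 28146 gene names on the array. Pou1f1 was not named on any probe, so it has no value here.

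RNA came from male adult mice, 8 wild-type (WT) and 8 Per3-/- knockouts, the latter lacking the clock gene Per3 through a cassette that replaces part of the gene in every tissue, all on a C57Bl/6J background. All mice had lived through 17 light-dark cycles of 3.5 h light and 3.5 h dark and were killed in the last light phase, and no group was kept on another schedule. The hypothalamic block was cut around the optic chiasm and holds the suprachiasmatic nucleus. Whole eyes of 7 WT and 7 knockout mice were measured too, and no eye numbered WT 2 or knockout 1 was analysed here. Each mouse and tissue had 1 array of 60-base probes with a single dye and no pooling, and both genotypes shared each of 4 slides per tissue. Values are log2 of the processed intensity minus the 75th percentile of the array, so 0 is that percentile and a difference of 1 is a doubling. The scanner software marks a spot as well above background or not, and 68.0% to 75.7% of the probes were so marked on the hypothalamic arrays and 71.5% to 80.8% on those of the eye. None of the 9 probes of the genes in the set was saturated on any array.

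The anterior pituitary hangs below the hypothalamus and holds cell types that each make their own hormone: somatotropes make growth hormone, lactotropes prolactin, thyrotropes thyrotropin, gonadotropes luteinizing hormone and follicle-stimulating hormone, and corticotropes the peptides cut from Pomc. Neurons of the hypothalamus release factors into the portal blood that raise or lower the output of each cell type through receptors such as Ghrhr and Gnrhr. A thin sheet of pituitary tissue, the pars tuberalis, lies along the base of the hypothalamus and makes Tshb and Cga under the control of melatonin. Pomc is made outside the pituitary too, by a group of neurons of the arcuate nucleus.

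For 5 of the 8 genes the probe spans an intron on the genome, so that its 60 bases are contiguous only in the spliced transcript. They are Gh, Tshb, Lhb, Ghrhr and Gnrhr, and 4 of these probes are shown because their signal is that of spliced RNA. Positions are on mouse assembly mm9, as the hypothalamic array files give them, and sequences are those of the array files, 5′ to 3′. The Gh probe lies at chr11:106162492-106162735 on the minus strand, the Lhb probe at chr7:52676746-52676958 on the plus strand, the Ghrhr probe at chr6:55334145-55334751 on the plus strand and the Gnrhr probe at chr5:86614486-86626361 on the minus strand.
Gh: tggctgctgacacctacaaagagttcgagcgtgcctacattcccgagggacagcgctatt
Lhb: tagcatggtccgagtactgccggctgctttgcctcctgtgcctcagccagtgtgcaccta
Ghrhr: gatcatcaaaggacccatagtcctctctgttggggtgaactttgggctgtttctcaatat
Gnrhr: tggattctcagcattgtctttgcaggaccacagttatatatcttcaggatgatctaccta
Their GC content runs from 40% in Gnrhr to 60% in Lhb. The probes of Prl (chr13:27156985-27157044, plus strand), Cga (chr4:34854483-34854542, plus strand) and Fshb (chr2:106897513-106897572, minus strand) each lie within a single stretch of genome. The second Tshb probe lies at chr3:102583248-102583307, and the order of its coordinates runs along the plus strand while the gene is on the minus strand. Over 25898 probes with a known gene strand, that order followed the strand of the gene in 99.2%. The second probe was therefore kept apart, and Tshb below means the first.

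The promoters of the hormone genes carry short sequences that the cell-type factors are known to bind. The 250 bases before the RefSeq transcript start (GRCm38.p6) were searched on both strands for ATGNATA (a core of POU1F1 sites, TATNCAT on the other strand), for TGNCCTTG (steroidogenic factor 1, CAAGGNCA on the other strand) and for TATAAA. RefSeq promoter entries were found for 7 of the 9 genes, all but Gh and Ghrhr. The promoters of Prl (chr13:27057320-27057569, plus strand) and Lhb (chr7:45420696-45420945, plus strand) are shown because each holds 2 matches to the motif of its own cell lineage, in capitals.
Prl: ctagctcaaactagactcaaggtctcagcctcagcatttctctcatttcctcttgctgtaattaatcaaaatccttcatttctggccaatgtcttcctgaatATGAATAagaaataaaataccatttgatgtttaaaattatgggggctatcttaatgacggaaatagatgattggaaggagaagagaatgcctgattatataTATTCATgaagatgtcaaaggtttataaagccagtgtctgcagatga
Lhb: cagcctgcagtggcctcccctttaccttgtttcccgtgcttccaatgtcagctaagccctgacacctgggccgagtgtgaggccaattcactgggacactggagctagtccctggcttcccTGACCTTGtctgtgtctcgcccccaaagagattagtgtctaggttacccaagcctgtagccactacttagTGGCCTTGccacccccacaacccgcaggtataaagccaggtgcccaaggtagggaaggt
In Prl the matches to ATGNATA begin 148 and 47 bases before the start, and in Lhb those to TGNCCTTG begin 129 and 59 bases before it. Of the 2 Pou1f1 starts, 1 has a match to ATGNATA, 57 bases before it and overlapping a TATAAA, and Cga has 1 match to TGNCCTTG, 215 bases before its start. The 250-base windows of Tshb, Fshb and Gnrhr hold neither motif. Of 32851 promoters of the same length, 7.92% hold ATGNATA, 5.53% hold TGNCCTTG and 12.4% hold TATAAA on either strand, so each match is a description of the letters and not of a bound site.

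In the hypothalamus, the signal of each of the 8 genes was far higher in a single knockout block than in the others, and that of Prl and Gh also in a single WT block. These were knockout block 1 and WT block 5, the first on slide 1 and the second on slide 3. Both are given below as single values, and the other 14 blocks as a range.

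Prl, the hormone of the lactotropes, was at 8.13 in knockout block 1, at 4.65 in WT block 5, and between -6.98 and -3.27 (median -5.23) in the other 14 blocks. By genotype, the lowest, median and highest values were -6.98, -5.31 and 4.65 in WT and -5.66, -4.75 and 8.13 in the knockouts. Without those 2 blocks, all knockout values lay inside the range of the WT values, and 2 WT blocks were not well above background. Knockout block 1 was 11.1-fold above WT block 5, which was itself 242-fold above the highest of the 14.

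Gh, made by the somatotropes, had the same order, with 8.19 in knockout block 1, 3.57 in WT block 5 and -5.42 to -3.58 (median -4.89) in the other 14. The lowest, median and highest values were -5.42, -4.60 and 3.57 in WT and -5.14, -4.78 and 8.19 in the knockouts. Gh was well above background on all 16 arrays, so the low values are measured levels and not a floor. Knockout block 1 was 24.6-fold above WT block 5, and WT block 5 was 142-fold above the highest of the other 14.

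Tshb, the subunit that makes thyrotropin specific, was at 3.31 in knockout block 1 and between -5.95 and -3.60 (median -4.67) in the 14, with WT block 5 at -2.85. Its lowest, median and highest values were -4.86, -4.43 and -2.85 in WT and -5.95, -4.85 and 3.31 in the knockouts. Knockout block 1 was thus far above all others, whereas WT block 5 was only 1.68-fold above the highest of the 14.
Cga, the alpha subunit, was at 7.57 in knockout block 1, at 1.54 in WT block 5 and between -1.05 and 0.86 (median -0.46) in the 14. Its lowest, median and highest values were -0.72, 0.15 and 1.54 in WT and -1.05, -0.59 and 7.57 in the knockouts. Both blocks kept their order, 65.8-fold apart, and WT block 5 was 1.59-fold above the highest of the 14. Tshb and Cga were well above background on all 16 arrays.
The second Tshb probe did not take part: it was at -4.98 in knockout block 1 and between -5.34 and -4.45 over all blocks, a spread of 0.89 against 9.26 for the first. Its correlation with the first probe was 0.01 over the 16 blocks and 0.55 over the 14.

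Lhb, of the gonadotropes, was at 1.70 in knockout block 1, at -1.89 in WT block 5 and between -2.53 and -2.03 (median -2.26) in the 14. Its lowest, median and highest values were -2.53, -2.26 and -1.89 in WT and -2.53, -2.21 and 1.70 in the knockouts. The 14 blocks differed by only 0.51 on the log2 scale, and knockout block 1 was 12.1-fold above the next block.
Fshb, the other gonadotropin subunit, was at -0.25 in knockout block 1 and between -5.50 and -4.70 (median -5.05) in the 14, with WT block 5 inside that range at -4.81. Its lowest, median and highest values were -5.35, -5.07 and -4.70 in WT and -5.50, -4.97 and -0.25 in the knockouts. Fshb therefore stood apart in knockout block 1 alone, by 21.8-fold over the highest other block.

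The receptors followed the hormones of their cells in knockout block 1. Ghrhr, which somatotropes use to sense the releasing hormone for growth hormone, was at -1.31 there, at -5.25 in WT block 5 and between -6.21 and -5.27 (median -5.72) in the 14. Its lowest, median and highest values were -6.21, -5.83 and -5.25 in WT and -5.82, -5.65 and -1.31 in the knockouts. WT block 5 lay at the top edge of the others and knockout block 1 was 15.4-fold above it, with 15 of 16 arrays well above background.
Gnrhr, the receptor by which gonadotropes sense gonadotropin releasing hormone, was well above background in knockout block 1 only, at -0.48. The other 15 arrays gave -9.01 to -8.24, which are background signals with no order among them. Against the mean over those arrays of the lowest signal that counts as well above background, knockout block 1 was at least 65.8-fold higher, and against the highest of those floors at least 50.8-fold.

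**Figure D1:**
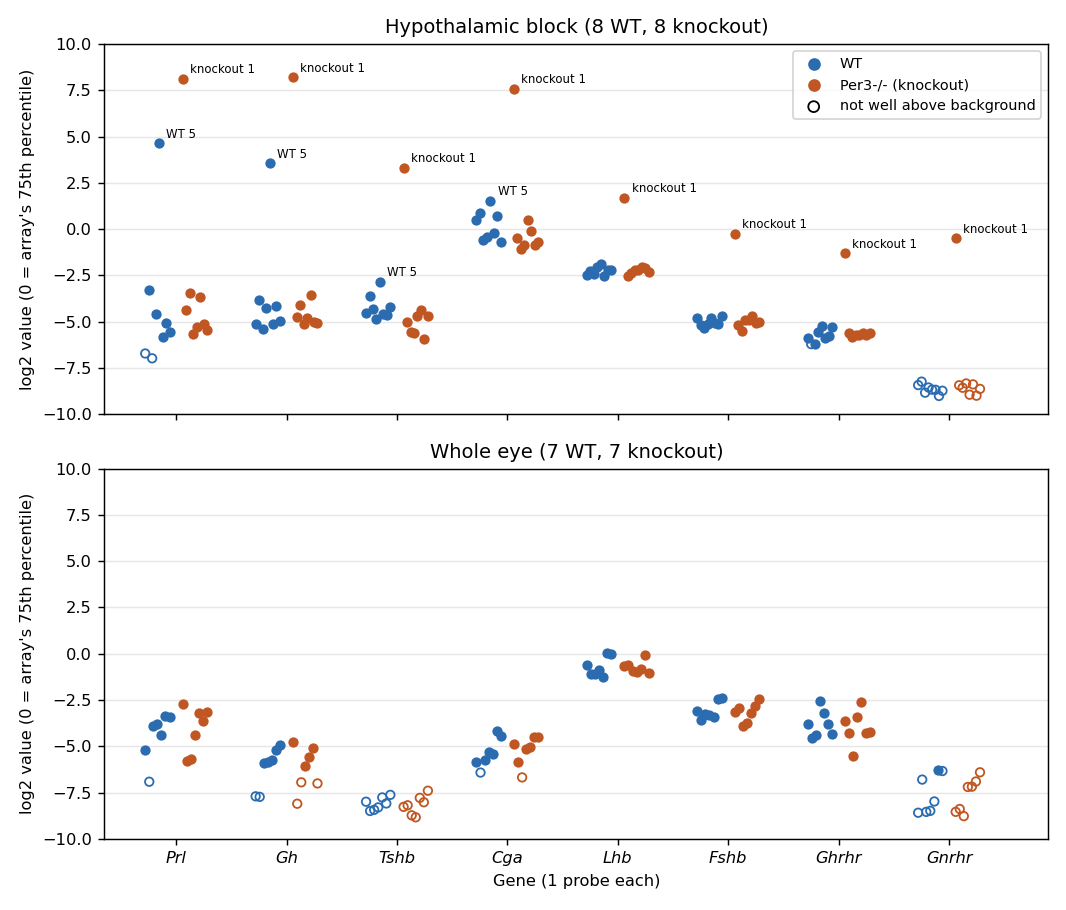
Log2 value of each gene (1 probe each, 0 is the array's 75th percentile) in every hypothalamic block (top, 8 WT and 8 knockout) and every eye (bottom, 7 and 7). Each point is 1 array and open points were not well above background; knockout block 1 is the highest point for all 8 genes, at 8.13 for Prl and 8.19 for Gh, and WT block 5 stands apart for Prl (4.65) and Gh (3.57).

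Over the whole array, 360 probes (0.874%) were well above background in knockout block 1 and over 2-fold above the highest of the other 15 blocks. All 8 genes are among them, but their signal in that block is what they were chosen for, so this count supports nothing. Each of the other 15 blocks was over 2-fold above the rest at 65 to 306 probes (median 81, the most in knockout block 7). WT block 5 was over 2-fold above the 14 blocks other than knockout block 1 at 73 probes (0.177%), with Prl and Gh the 2 of the 8 genes among them.

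The labelled tissue was checked by 10 markers of hypothalamic neurons, of which Avp, Oxt, Hcrt, Pmch, Agrp, Npy, Vip and Six6 were well above background on all 16 arrays, Sim1 on 14 and Otp on 0. Per3 itself, read by a probe whose place relative to the deleted part was not given in the sources used here, had lowest, median and highest values of -3.82, -3.47 and -3.32 in WT and -4.24, -4.02 and -3.61 in the knockouts. The difference was -0.51 (SE 0.09) with an adjusted p of 0.0678 by limma, 7 of 8 knockouts were below every WT block, and the exception was knockout block 1 at -3.61. At the 16 probes that limma called without knockout block 1, that block was on the knockout side of the midpoint at 11 and on the WT side at 5. At 12 to 15 probes called the same way without each of the other 7 knockout blocks, those lay on the WT side at 0 to 2, and WT blocks lay on the knockout side at 0 to 4. WT block 5 lay on the WT side at 13 of 13. The library labelled knockout 1 is meant wherever knockout block 1 is named here.

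The 8 genes were not raised in equal proportion in the 2 blocks. For each gene, the excess of a block is its level on the linear scale minus the level in another block, here over the range of the other 14. For Prl the excess in knockout block 1 was 11.1 to 11.2 times that in WT block 5, and for Gh it was 24.6 to 24.7 times. For Tshb the ratio was 79.8 to 175, for Cga 78.1 to 176 and for Lhb 31.3 to 131. These ranges do not overlap those of Prl and Gh, so that relative to prolactin and growth hormone, WT block 5 held less excess of the thyrotropin and gonadotropin subunits than knockout block 1. For Ghrhr the ratio was at least 29.5, and for Fshb, which was not raised above all others in WT block 5, at least 59.3. The same was found for Pomc, the corticotrope precursor that is no member of the set, with a ratio of at least 89.5. With 1 block of each kind there is no test of these ratios. 2 arrays of Prl, 2 of Gh and 1 of Cga took their value from the low-gain scan of the slide, and how linear the scale is at that end was not tested. Which scan gave the values of Pomc, at 8.64 in knockout block 1, is not given here.

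**Figure D2:**
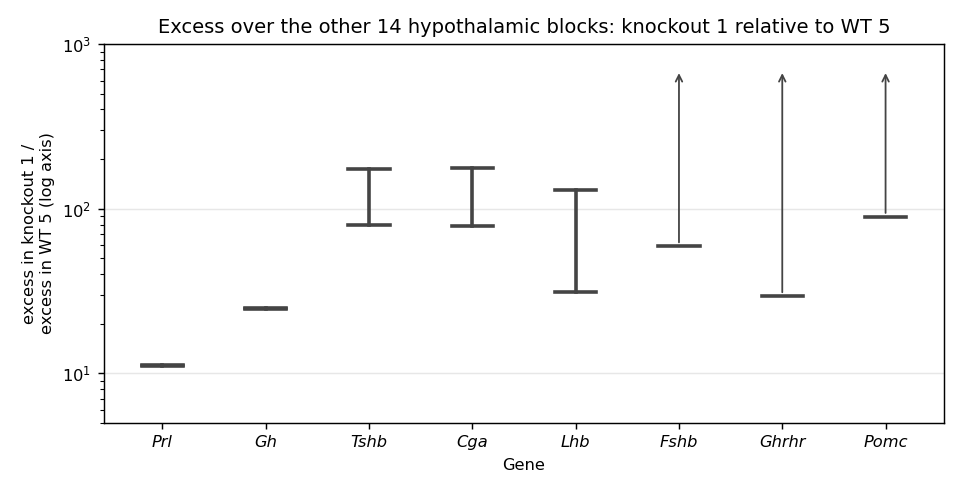
Excess of each gene over the other 14 hypothalamic blocks in knockout block 1, divided by that in WT block 5 (log axis). Bars span the range over the choice among the 14 blocks and arrows mark genes whose upper end is beyond the axis or has no bound; Prl (11.1 to 11.2) and Gh (24.6 to 24.7) lie below Tshb (79.8 to 175) and Cga (78.1 to 176).

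The same comparison can be put on the log2 scale. Had every gene been raised in WT block 5 by the fraction that Gh was, Tshb would have stood at -1.28 to -1.05 there, and it was measured at -2.85. Cga would have stood at 3.02 to 3.26 and was at 1.54, and Lhb at -1.76 to -1.43 against a measured -1.89. Fshb would have stood at -4.20 to -3.80 and was at -4.81. For Ghrhr the scaled value was -5.12 to -4.58 and the measured one -5.25, and for Pomc 4.24 to 4.70 against 2.92. All 6 genes were thus below the value scaled from Gh, but Lhb and Ghrhr by less than their SD among the other WT blocks (0.17 and 0.34). The scaled ranges cover the choice among the 14 blocks and not the noise of WT block 5. For Gnrhr the scaled value of -5.02 to -4.95 would have been a detectable level, but the probe was not well above background in that block.

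The 8 genes varied together over the hypothalamic blocks, and most of that shared variation came from the 2 high blocks. Over the 16 blocks the 28 pairs of genes had Pearson correlations between 0.77 and 0.99 (median 0.92), but Spearman's rank correlations between 0.01 and 0.96 (median 0.35). Without knockout block 1 and WT block 5, the Pearson correlations ran from -0.40 to 0.88 (median 0.15), 8 pairs were below 0 and 3 were above 0.5. These are descriptions over blocks that share slides and that were chosen partly for this pattern, so no p is attached.

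Prl and Gh, made by sister cell types that both depend on Pou1f1, kept their covariation among the 14 blocks. Their correlation was 0.99 over 16 blocks (rho 0.96) and 0.88 over 14 (rho 0.94). It was 0.94 among the 7 WT and 0.90 among the 7 knockout blocks that remained, and 0.87 over the 14 with slide means removed. Over the 14 blocks, of 30749 probes well above background on at least 4 arrays, none correlated with Prl more closely than Gh did, and none with Gh more closely than Prl.
Tshb and Cga, the subunits of 1 hormone, had a correlation of 0.97 over 16 blocks (rho 0.71) and 0.64 over 14 (rho 0.57). Among the 14, this fell to 0.49 with slide means removed, and it was 0.33 within WT and 0.72 within the knockouts. There, 189 probes were closer to Tshb than Cga was, and 119 closer to Cga than Tshb was.
Prl and Tshb, in contrast, went from 0.85 over 16 blocks to 0.00 over 14. The third pair above 0.5 among the 14 blocks was Fshb and Ghrhr at 0.52.

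**Figure D3:**
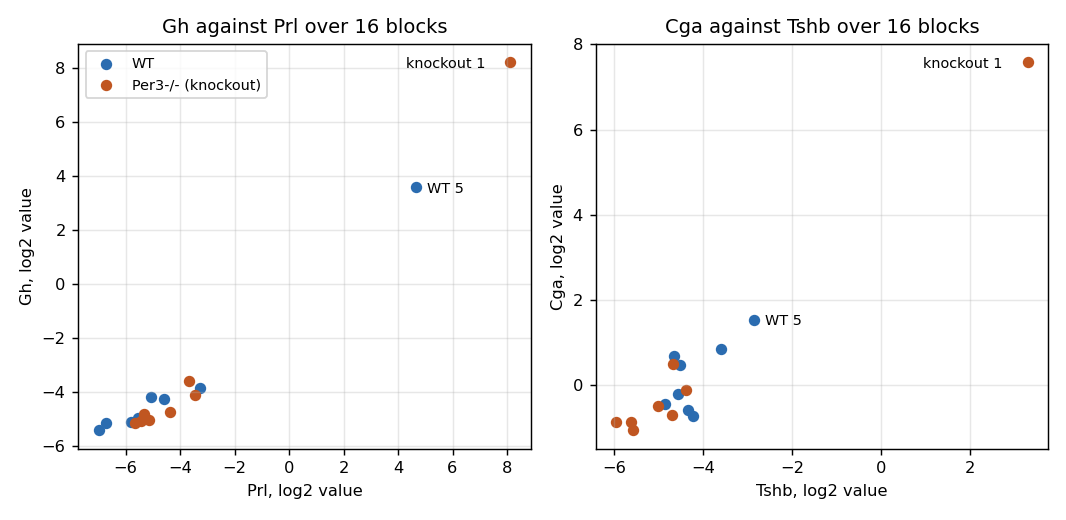
Log2 values of Gh against Prl (left) and of Cga against Tshb (right) in the 16 hypothalamic blocks, 1 point per block. Knockout block 1 and WT block 5 set the correlations of 0.99 and 0.97, and without them the other 14 blocks give 0.88 for Prl and Gh and 0.64 for Tshb and Cga.

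The genes whose values over the 16 blocks were most like those of the hormones were also mostly high in knockout block 1. Among probes with a gene symbol, closest to Prl were Agtr1a (an angiotensin receptor, r = 0.92), Klk1b3 (a kallikrein, 0.88), Dap (0.85) and Pla2r1 (0.85). A transcript without a symbol held rank 3 for Prl (0.85), ahead of Dap. Closest to Gh were again Agtr1a (0.96), Klk1b3 (0.93) and Dap (0.89). The 10 probes most like Prl and the 10 most like Gh shared 6. Closest to Tshb were Cyp2f2 (0.97), Epcam (an epithelial adhesion molecule, 0.97), Vegfd (0.97), Elapor1 (0.96) and Pitx1 (0.96), a homeodomain factor of the developing and adult pituitary, and Pomc was ninth (0.95). Closest to Lhb were 4930579G24Rik (0.99), Creb3l2 (a transcription factor of secretory cells, 0.98), Dap (0.98) and Krt7 (a keratin of simple epithelia, 0.98). Without the 2 high blocks, 2 of the 10 probes most like Prl, 1 of those most like Gh, 7 of those most like Tshb and 2 of those most like Lhb kept a correlation above 0.5. For Tshb, Vegfd was at 0.84 and Pitx1 at 0.72 over the 14.

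The other genes of the pituitary cell types were read from lists of markers, of which many are also expressed in the brain. Outside the set of 8, 21 genes of the pituitary cell type and transcription factor lists had a probe, and 6 of them were over 2-fold above the other 15 blocks in knockout block 1, against 0.874% of all probes. They were Pomc, Tbx19, Pax7, Pitx1, Lhx3 and Neurod4. Of 49 genes on the lists for the pars tuberalis, pituicytes, hypothalamic neurons and factors, hormone receptors, choroid plexus, meninges, blood and forebrain neurons, 1 was (Six6). In WT block 5, 0 of the 21 and 0 of the 49 were over 2-fold above the 14.

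By list, the counts over 2-fold in knockout block 1 were 2 of 4 for somatotropes, 1 of 3 for lactotropes, 2 of 3 for thyrotropes, 4 of 5 for gonadotropes, 2 of 5 for corticotropes and 2 of 4 for the melanotropes of the intermediate lobe. In the first 4 of these lists every gene counted is a hormone or receptor of the set. The corticotrope genes were Pomc, at 8.64 in knockout block 1 against 1.68 to 3.32 in the 14, and Tbx19, the factor that drives Pomc in corticotropes and melanotropes. Tbx19 was at -3.44 there and not well above background on any other array, so that its level was at least 6.53-fold above the highest background floor of the others. The rest of the corticotrope list was not raised in knockout block 1. Crhr1, at 0.29, and Avpr1b, at -4.30, were inside the ranges of the 14 (0.03 to 1.52 and -4.84 to -3.57). Neurod1, at -4.34, was below the 14 (-4.24 to -3.19). The melanotrope genes were Pomc and Pax7, which sets melanotrope identity, at -2.44 against -5.04 to -3.82 in the 14. Pomc, Tbx19 and Pax7 do not belong to the set of 8.
Of 11 pituitary transcription factors, 5 were over 2-fold above. Pitx1 was at 1.98 against -4.16 to -1.74 in the 14, and Lhx3, required for most anterior lobe lineages, was at -3.46 against -6.60 to -5.70. The others were Pax7, Tbx19 and Neurod4. Neurod4 was well above background in knockout block 1 alone, at -5.38, and against the highest background floor of the others its bound was at least 1.71-fold, short of 2-fold. Hesx1, Isl1, Lhx4, Gata2, Zbtb20 and Nr5a1 were not over 2-fold above, and Hesx1, an early factor of the pituitary primordium, did not rise well above background on any of the 16 arrays.

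Receptors that pituitary cells share with the brain did not pass 2-fold. Ghsr, the ghrelin receptor, was at -3.67 in knockout block 1, inside the range of the 14 (-3.93 to -2.87), as was Sstr2, a somatostatin receptor, at -1.34 (-1.55 to -0.77). Trhr, by which thyrotropes sense thyrotropin releasing hormone, was at -1.56 (-2.06 to -1.37 in the 14). Esr1, the oestrogen receptor of lactotropes and gonadotropes, was at -1.49 against at most -2.41 in the 14, and Drd2, the dopamine receptor that restrains prolactin, at -0.30 against -1.65 to -0.84. Both were the highest of the 16, by 1.89-fold and 1.45-fold.

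Markers of the neighbouring tissues gave other patterns. On the pars tuberalis list, 2 of 6 genes were over 2-fold above (Tshb and Cga themselves). Mtnr1a, the melatonin receptor that marks this tissue, was at -6.21 in knockout block 1 and at -7.18 to -5.98 in the 14. It was highest in WT block 5, at -5.71, which is 0.27 above the highest of the 14. The Mtnr1a probe was well above background on 6 arrays only, those of knockout block 1 and WT block 5 among them. Most of its values in the 14 are therefore background signals. None of 5 pituicyte genes of the posterior lobe, of 9 releasing and inhibiting factors, of 5 receptors for the pituitary hormones, of 6 choroid plexus, 5 meningeal, 3 blood and 4 forebrain genes was over 2-fold above. Of 10 genes of hypothalamic neurons, 1 was, Six6, which is also expressed in the developing pituitary, at -2.71 against -5.71 to -4.47. On the log2 scale, the summed level of the choroid plexus genes was 2.78 in knockout block 1 and 4.01 in WT block 5, inside the range of 1.17 to 4.58 over the 14. That of the blood genes was 6.29 and 6.16, within 5.82 to 7.37. The part of pituitary cells in the signals of the 2 blocks was not tested. In a bulk sample, more cells of a type and more RNA per cell cannot be told apart.

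**Figure D4:**
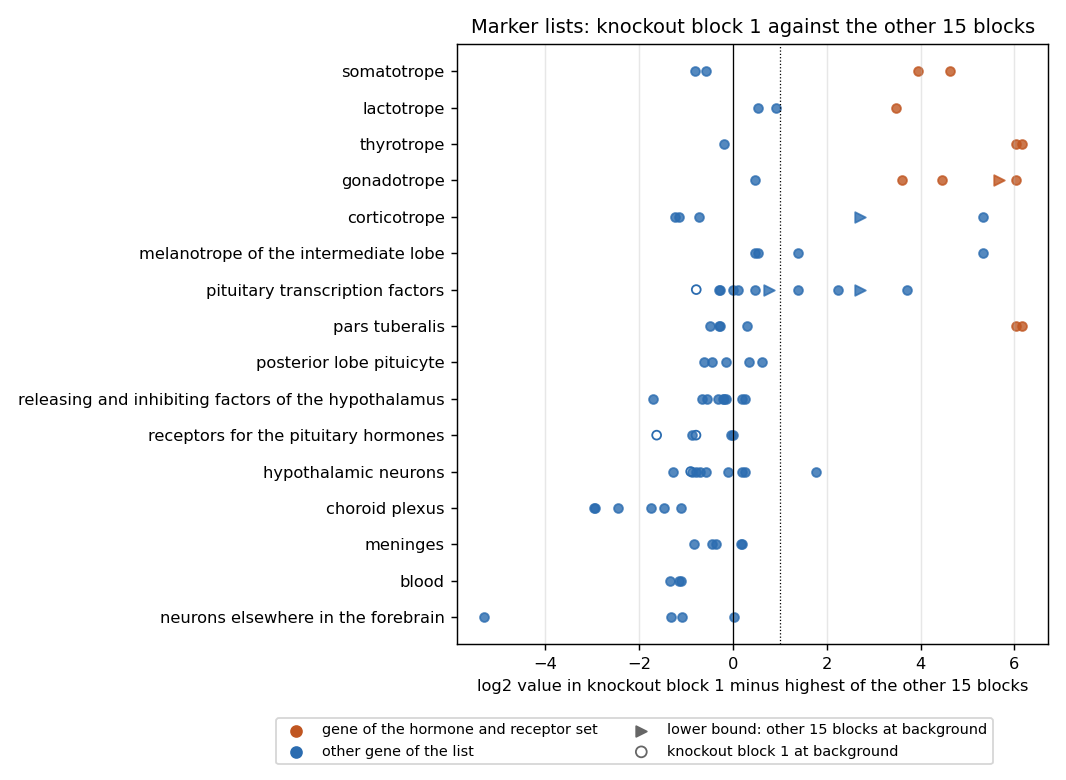
Log2 value in knockout block 1 minus the highest value of the other 15 hypothalamic blocks, 1 point per gene, for each marker list, with the dotted line at 1 (2-fold); triangles are lower bounds against the highest background floor, for genes well above background in that block alone, and open points were at background in it. Hormone and receptor genes of the set that are high, chosen for this signal, reach from 3.48 to 6.15 with Gnrhr at its bound of 5.67, and the bound of Neurod4 (0.77) is short of the line.

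The genotype comparison in the hypothalamus asked whether loss of Per3 changed these genes. All 8 had a higher mean in the knockouts, while the median difference over all probes was -0.01 and 43.1% of probes were higher. None of the 8 was at an adjusted p under 0.05 by limma, where 17 of 41174 probes (0.0413%) were, and the lowest adjusted p among them was 0.989. At an unadjusted p under 0.05 there were 0 of the 8 by limma, against 2.81% of all probes, and 0 by the methods' t-test, against 3.09%, shares at which 0 of 8 is no result about these genes. Since these genes were high in knockout block 1 by choice, their direction here is not independent of it. On the fold alone, 33 probes (0.0801%) were over 2-fold higher in the knockout mean. They include Prl, and also Gnrhr, whose fold is not read because 15 of its 16 arrays gave background signals. At 5 of these 33, knockout block 1 was over 2-fold above the next block, 20 were still over 2-fold higher without it and 1 turned lower.

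WT blocks had a mean Prl value of -4.17 ± 3.75 (SD, n = 8), and knockout blocks one of -3.11 ± 4.62 (SD, n = 8), a log2 difference of 1.05 (SE 2.10, adjusted p 0.989 by limma). The exact permutation p was 0.534, two-sided. The difference was -0.55 without knockout block 1, 2.31 without WT block 5 and 0.71 without both. Within slides, it was 6.88 on slide 1, which holds knockout block 1, -3.92 on slide 3, which holds WT block 5, and 1.23 and 0.02 on the others.
Gh differed by 0.63 (SE 1.93, adjusted p 0.991 by limma, exact permutation p 0.699), and by -0.98 without knockout block 1, 1.66 without WT block 5 and 0.06 without both. On slides 1 to 4 in turn it was 6.22, 0.21, -3.43 and -0.50. For both hormones the sign on a slide was that of the high block where there was one.

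Tshb had the smallest difference over all blocks, 0.12 (SE 1.098, adjusted p 0.995 by limma, exact permutation p 0.995). Of the 8 knockout blocks, 1 lay above every WT block and 4 lay below every WT block. Without knockout block 1, Tshb was lower in the knockouts by -0.93 on the log2 scale (SE 0.33), with an unadjusted p of 0.00902 and an adjusted p of 1.0 by limma. Without both blocks it was -0.74 (SE 0.27, unadjusted p 0.0124 by limma). On the 3 slides without knockout block 1, with WT block 5 kept, it was -1.002, -0.82 and -0.89. The -0.82 is that of slide 3 and rests on WT block 5 (-2.85). The other WT block of that slide, at -4.57, lay between its knockout blocks, at -4.68 and -4.38. So the lower level of Tshb in the other knockouts did not pass the adjusted threshold. At an unadjusted p under 0.05 by limma, 1140 of 41174 probes passed without knockout block 1 and 1102 of 41174 without both. Tshb was the 1 of the 8 genes that passed in each of these fits.
Cga, its partner subunit, went the same way, from 0.29 (SE 1.06) over all blocks to -0.72 without knockout block 1 (unadjusted p 0.0533 by limma) and -0.53 without both (unadjusted p 0.103 by limma). On slides 1 to 4 in turn it was 2.87, -0.46, -0.48 and -0.76, and 3 knockout blocks lay below every WT block. The sign on slide 3 was that of WT block 5 (1.54). The other WT block of that slide, at -0.19, lay below both of its knockout blocks, at 0.50 and -0.11. The second Tshb probe differed by -0.16 (SE 0.10, unadjusted p 0.105 by limma).

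For Lhb, Fshb and Ghrhr the difference was near 0 without knockout block 1. Lhb differed by 0.50 (SE 0.50) over all blocks and by 0.01 without it. Fshb differed by 0.57 (SE 0.61) and by -0.03 without it. Ghrhr differed by 0.63 (SE 0.56) and by 0.08 without it. Their exact permutation p-values over all blocks were 0.467, 0.591 and 0.295. For Gnrhr no fold between genotypes is given, since its only array well above background was that of knockout block 1.

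**Figure D5:**
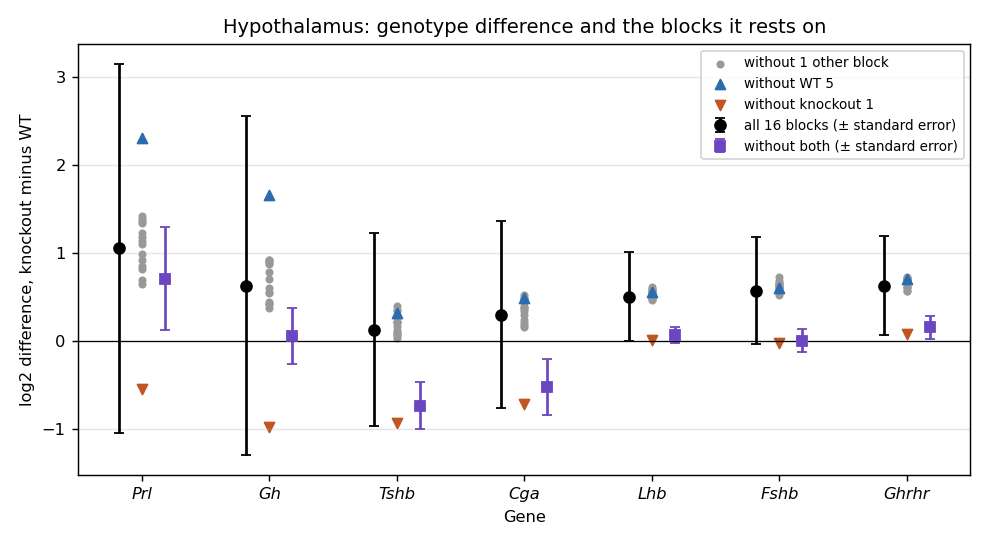
Log2 difference in the hypothalamus, knockout minus WT, for 7 genes with all 16 blocks and without both high blocks (± standard error of the linear model), with markers for leaving out knockout block 1, WT block 5 or each other block. Leaving out knockout block 1 moves Tshb from 0.12 to -0.93 and Prl from 1.05 to -0.55.

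In the whole eye, none of the 8 genes had an array that stood apart. Lhb, Fshb and Ghrhr were well above background on all 14 arrays, at lowest, median and highest values of -1.28, -0.85 and 0.03 for Lhb, -3.93, -3.20 and -2.41 for Fshb and -5.50, -4.02 and -2.54 for Ghrhr. Prl was at -6.92, -3.83 and -2.71 (13 of 14 arrays above background), Gh at -8.11, -5.88 and -4.77 (9 of 14) and Cga at -6.68, -5.22 and -4.15 (12 of 14). Tshb was above background on 0 and Gnrhr on 1 of 14 arrays. The eye numbered WT 5, as the high hypothalamic block is, was inside the range of the others for Prl (-3.78) and Gh (-5.84) and was the highest of the 14 for Ghrhr (-2.54). The sources do not state that equal numbers in the 2 tissues mean the same mouse. Prl and Gh covaried in the eye as well, with a correlation of 0.81 over 14 eyes and 0.68 with slide means removed, and Prl and Cga had 0.84 and 0.73. Correlations of this size were not particular to these pairs. Tshb, at background on every eye array, had 0.76 and 0.64 with Fshb, and Fshb and Ghrhr had 0.03 and 0.79. What the eye arrays shared was not tested.

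Much of the variation in the eye lay between slides, which held 83.5% of the variance of Cga, 79.1% of that of Ghrhr, 73.1% of that of Fshb and 54.1% of that of Prl, against a median of 30.7% over all probes. In the hypothalamus the median of all probes was 24.9%. The slides held less for Prl (16.9%), Gh (16.5%), Lhb (13.3%), Fshb (19.6%) and Ghrhr (13.9%), and more for Cga (30.1%), Tshb (25.6%) and Gnrhr (25.4%). No member differed between the genotypes in the eye at an adjusted p under 0.05 by limma, where 8 of 41174 probes (0.0194%) did, and 1 probe with the replicate number as a block. The differences were 0.34 (SE 0.67) for Prl, -0.08 for Gh, 0.10 for Cga, -0.02 for Lhb, -0.11 for Fshb and -0.20 for Ghrhr on the log2 scale, all smaller than their standard errors. With the replicate number as a block, Gh was at -0.58 (SE 0.35, unadjusted p 0.0925 by limma). At an unadjusted p under 0.05 there were 0 of the 8 genes by limma, against 1.8% of all probes, and 0 by the methods' t-test, against 2.06%. Whether the genotype difference was unlike in eye and hypothalamus was not tested.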

How the data were processed

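The authors hybridised 1 Cy3-labelled sample per array, and they deposited the scanner's processed intensity of each spot, background-subtracted and on a linear scale. They also deposited log2 values, which the files show to be those intensities relative to the array's 75th percentile and centred on each probe's tissue median. Here log2 of the intensity minus the log2 75th percentile was used, after spots marked uneven or as outliers were dropped (at most 91 of 43379 on an array) and spots of 1 probe were averaged. Probes were found by gene name in the hypothalamic files and matched to the eye by probe. The members and the marker lists were chosen with earlier results of these data known, and some list genes and 1 probe sequence are not reported here. The genes named were the members, the genes of the lists, and up to 10 probes of closest Pearson correlation with Prl, Gh, Tshb and Lhb among those well above background on at least 4 arrays, of which the report gives the first few.

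Genotypes were compared per tissue with limma 3.58.1 in R 4.3.3 over all 41174 probes (groups WT and knockout, 8 and 8 in the hypothalamus, 7 and 7 in the eye), with p-values adjusted by Benjamini-Hochberg over every probe, and single genes with exact permutation tests over 12870 splits of the 16 blocks. The limma step was tested on simulated data with known changes. Other steps used Python 3.11.15. Within a tissue each array is a separate mouse, as the study's methods state, and both tissues come from the same mice.

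Mice of the same number in both genotypes deviated from their group means with correlations of 0.109 to 0.627 over all probes in the eye (6 pairs) and of -0.03 to 0.316 in the hypothalamus (8 pairs). Over probes well above background these were 0.00201 to 0.679 and -0.204 to 0.396. The sources name no pairing, so replicate numbers entered only as an alternative. The other alternatives were quantile normalization, normexp background correction (offset 50), the deposited log2 values, a filter on dim probes, the slide as a block, the methods' t-test, a linear scale for correlations and each block left out. Leaving out knockout block 1 and WT block 5 together, alone and with the slide as a block, was chosen after seeing the data.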

Additional observations from a re-analysis of the deposited data

Results flagged for a closer look

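In each group of 7 or 8 arrays, the gap between the highest or lowest array and its nearest neighbour was set against the range of the group for every probe of the set. Of 36 groups tested, 11 had an array that stood apart, all of them hypothalamic, with 0 among the eyes. Chance flags about 1 in 20 groups. Among the knockouts, block 1 was the one apart for all 8 genes, with gap over range of 0.839 for Prl, 0.883 for Gh, 0.830 for Tshb, 0.820 for Cga, 0.881 for Lhb, 0.850 for Fshb, 0.950 for Ghrhr and 0.922 for Gnrhr. These 8 are not independent of each other, since they come from 1 array, and the genes were chosen for it. Among WT, block 5 stood apart for Prl (0.681) and Gh (0.824). The second Tshb probe had its lowest knockout value, -5.34, in block 7, with a gap over range of 0.544.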

How the results depend on the processing

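None of the 8 genes passed an adjusted p under 0.05 in either tissue under any alternative. The count over all probes in the hypothalamus, 17, was 10 with normexp background correction, 5 with the replicate block and 10 with the slide as a block and both high blocks left out. In the eye, 8 became 4 with normexp and 1 with the replicate block. The median spread of the 8 genes over the hypothalamic blocks, 8.58, was 6.09 with normexp and 1.39 without both high blocks, and 1.78 to 8.58 with 1 block left out. The median correlation of the 28 pairs, 0.92, was 0.15 without both blocks, 0.999 on the linear scale and 0.32 to 0.96 with 1 block left out. In each case knockout block 1 gave the low end.

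The sign of Tshb turned to -0.74 without both blocks and -0.75 with the slide as a block as well, that of Cga to -0.53 and -0.52, and that of Fshb to -0.0238 with both choices. With 1 block left out, Prl ran from -0.55 to 2.31, Gh from -0.98 to 1.66, Tshb from -0.93 to 0.39, Cga from -0.72 to 0.52 and Fshb from -0.0283 to 0.72, each negative without knockout block 1 only. In the eye, the replicate block gave -0.0112 for Prl, -0.0459 for Cga and -0.58 for Gh (-0.08 without it), and normexp gave 0.32 for Gh, 0.0591 for Lhb, 0.115 for Fshb and 0.0611 for Ghrhr, where it moved the median of all probes to 0.18. With 1 eye left out, Prl ran from -0.0714 to 0.63, Gh from -0.35 to 0.23, Cga from -0.0822 to 0.34, Lhb from -0.13 to 0.10, Fshb from -0.23 to 0.016 and Ghrhr from -0.43 to 0.0469. The replicate block changed no call of the 8 genes. For the other signs and counts the cause was not tested. Levels near background, as of Gnrhr in the hypothalamus and Tshb in the eye, limit the precision, as does the number of arrays.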
